A study of Mus musculus with 9 samples.

Results

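The Notch genes described here are the receptors Notch1, Notch2, Notch3 and Notch4, the ligands Dll1, Dll4, Jag1 and Jag2, and the target genes Hes1 and Hey1. These 10 genes were found by symbol among the 55487 genes of the count table, and 9 of them had enough counts to be tested. They were followed across 9 poly-A RNA-seq libraries of MCEC, an established line of mouse cardiac endothelial cells. The libraries form 3 groups of 3: WT, a Zbtb46 knockdown (KD) and an overexpression of Zbtb46 (OE). Zbtb46 encodes a zinc finger transcription factor of the BTB family. The labels do not give the means of knockdown or overexpression, whether a line is 1 clone, or whether replicates are separate cultures, and no empty-vector library was analysed here, so p-values measure only the spread between these libraries.

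Notch receptors sit in the cell membrane and are switched on by Delta-like and Jagged ligands on neighbouring cells. Binding lets the protease ADAM10 and then the gamma-secretase complex cut the receptor, and the freed intracellular domain enters the nucleus, joins RBPJ and a Mastermind coactivator, and turns on genes such as those of the Hes and Hey families. In blood vessels this pathway restrains sprouting, keeps arterial identity and guides the contact of endothelial with mural cells. Dll4 and Jag1 are known for opposing roles in sprouting.

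Promoter sequence is shown for Notch1 and Jag1, the members called between OE and WT, and for Notch2, the most abundant receptor, which gave no call, so that the 3 can be compared. RefSeq (GRCm38.p6) promoter windows were matched for 8 of the 10 genes; Hes1 and Hey1 were not matched. Of the 250 bases before each RefSeq start, the bases from the far end up to the first base of any GENCODE exon are printed 5′ to 3′ on the gene's strand, which leaves out annotated exons. Capitals mark a match to CACGCG, a site bound by Hes and Hey factors, on either strand. TGGGAA, the core letters of the RBPJ motif, and CACGTG, the E-box, were searched the same way and match nowhere in these stretches.
Notch1 (chr2:26503825-26504072, minus strand): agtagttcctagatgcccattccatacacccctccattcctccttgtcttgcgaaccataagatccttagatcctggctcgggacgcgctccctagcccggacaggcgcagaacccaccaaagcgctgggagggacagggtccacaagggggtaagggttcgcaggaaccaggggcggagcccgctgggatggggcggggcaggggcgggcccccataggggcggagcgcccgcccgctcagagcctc
Jag1 (chr2:137116645-137116770, minus strand): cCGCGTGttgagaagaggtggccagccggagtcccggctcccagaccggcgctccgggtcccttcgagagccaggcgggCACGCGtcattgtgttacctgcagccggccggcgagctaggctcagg
Notch2 (chr3:98013288-98013526, plus strand): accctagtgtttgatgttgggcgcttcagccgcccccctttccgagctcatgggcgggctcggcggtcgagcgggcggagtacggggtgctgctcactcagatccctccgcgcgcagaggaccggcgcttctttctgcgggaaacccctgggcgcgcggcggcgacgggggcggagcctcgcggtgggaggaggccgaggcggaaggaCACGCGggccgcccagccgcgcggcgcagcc
The RefSeq start of Notch1 lies inside the span that GENCODE gives the gene, so its stretch lies within that span, between annotated exons. Jag1 holds 2 matches to CACGCG, Notch2 holds 1 and Notch1 holds 0. CACGCG also matched in the window of Dll4, which was not tested, and in a window of Dll1, which gave no call. Among all 32851 RefSeq windows of 250 bases, 7.62% hold CACGCG, 21.6% hold TGGGAA and 6.02% hold CACGTG on either strand. The median share of G and C over all windows was 52.4%. The printed stretches are richer in G and C, at 66.1% for Notch1, 70.6% for Jag1 and 74.1% for Notch2, and the Jag1 stretch has only 126 bases. A match describes the letters of the window and is not a measured binding site.

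Total counts ran from 39491828 to 55745849 per library. Ribosomal RNA took 7.44% to 17.3% of counts in WT, 9.55% to 12% in KD and 14.4% to 18.2% in OE. Levels are CPM, counts scaled to the size of the library and adjusted with TMM factors, and 1 count was worth 0.0168 to 0.0264 CPM. The targeted gene Zbtb46 averaged 13.7 ± 0.623 CPM (SD, n = 3) across WT, 11.2 ± 0.537 across KD and 191 ± 2.67 across OE, so that its mRNA was 17.8% down in the knockdown (log2 fold change -0.28, adjusted p 0.00144 in edgeR's quasi-likelihood test) and 14-fold up in OE. Of 12 endothelial markers, 4 reached 1 CPM in every library. Erg, Emcn and Cldn5 had at most 3 counts anywhere, Pecam1 had 0 to 10 counts and Cdh5 had 0 to 7, whereas Eng, a TGF-beta co-receptor, stood at 125 ± 6.78 CPM in WT. Among 6 fibroblast markers, 3 reached 1 CPM in every library, Col1a1 most of all. Lum and Tcf21 had at most 2 counts in any library, and Col1a2 had 8 to 38. Several markers that define endothelium were thus at or near 0 in these cells. Of 5 cardiomyocyte markers, 0 reached 1 CPM in every library.

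The WT cells carried mainly Notch2, Jag2, Jag1 and Hes1 mRNA. Levels were compared between genes only after division by the summed exon length in GENCODE M21, which counts every annotated exon and so understates genes with rarely used exons. On this scale, CPM per kilobase, WT held Hes1 at 15.1 ± 1.38 (SD, n = 3) and Notch2 at 14.5 ± 1.81, whose libraries overlapped. Jag2 followed at 7.84 ± 0.616, Jag1 at 2.33 ± 0.411, Notch1 at 1.36 ± 0.221 and Hey1 at 1.22 ± 0.078, the last pair overlapping. Notch3 lay lower at 0.694 ± 0.0767. Dll1, at 0.0943 ± 0.0289, and Notch4, at 0.0914 ± 0.0485, overlapped each other near the bottom. Dll4, the ligand best known from sprouting vessels, had 0 to 2 counts in the WT libraries, at or under the floor of 3 counts used here. In KD the order differed only in that Notch2 and Hes1, which overlapped again, traded places, whereas in OE Notch1 dropped to seventh place, level with Notch3.

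The shares of Notch1 and Jag1 in their families differed between OE and WT, while the family sums overlapped. Summed over the 4 receptors, WT averaged 16.6 ± 2.13 CPM per kilobase (SD, n = 3), KD 17.3 ± 0.904 and OE 17.1 ± 0.182, and the groups overlapped. Summed over the 4 ligands WT averaged 10.3 ± 0.992, KD 10.6 ± 0.0756 and OE 10.7 ± 0.473, again with overlap. Notch2 made up 87.1% ± 0.395 of the receptor sum in WT, 89.9% ± 0.746 in KD and 93% ± 0.462 in OE. Notch1 made up 7.84% to 8.62% of it in the WT libraries, 6.2% to 6.77% in KD and 2.57% to 3.51% in OE, so that no libraries of different groups overlapped. Jag2 made up 76.4% ± 2.19 of the ligand sum in WT, 76.5% ± 1.24 in KD and 67.2% ± 1.21 in OE. Jag1 rounded out nearly all of the rest, at 20.6% to 24.8% in WT, 21% to 23.2% in KD and 30.1% to 32.9% in OE.

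**Figure D1:**
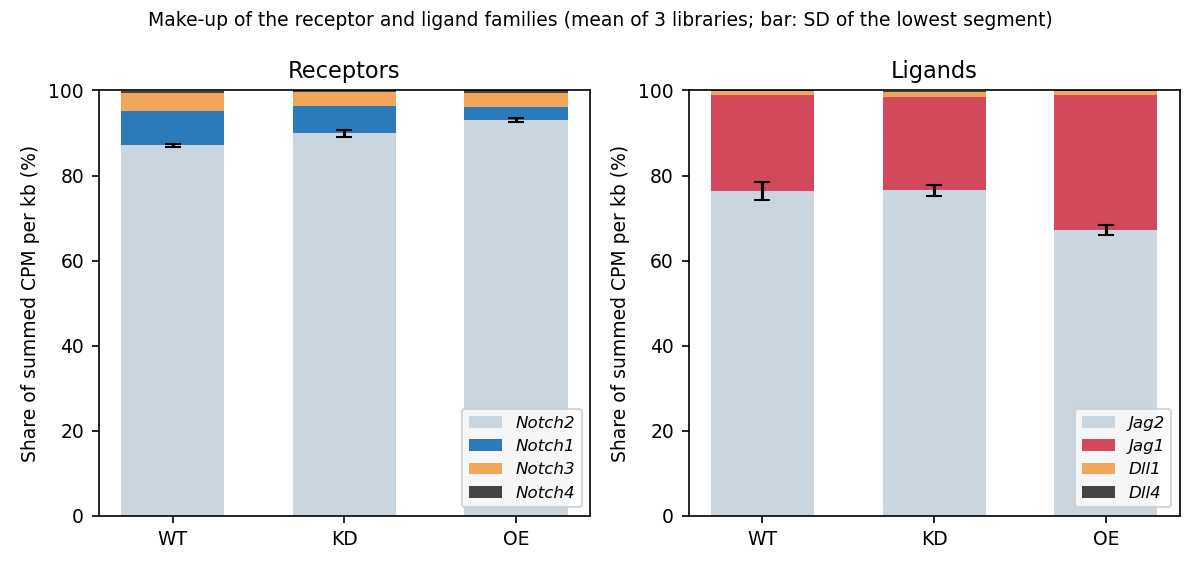
Stacked bars give the mean share (%, 3 libraries per group) of each gene in the summed CPM per kilobase of the 4 receptors (left) and the 4 ligands (right); the black bar is the SD of the lowest segment. The Notch1 segment shrinks from 8.18% in WT to 3.12% in OE, and the Jag1 segment grows from 22.6% to 31.7%.

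Notch1, which encodes the receptor with the best studied part in arterial endothelium, was the member that changed most. Its 3 WT libraries stood at 16.5, 19.1 and 22.7 CPM, its KD libraries at 17.6, 16.4 and 14.5 CPM, and its OE libraries at 7.93, 6.22 and 8.65 CPM. Every OE library lay below every WT and every KD library, while KD and WT overlapped. In OE Notch1 fell by 61% against WT, a log2 fold change of -1.36 (SE 0.13, 95% interval -1.6 to -1.1), adjusted p 4.41e-07 over all genes by the edgeR quasi-likelihood test. Against KD it fell by 53.1% in OE (log2 fold change -1.09, SE 0.131, edgeR adjusted p 3.83e-06). Between OE and WT, 3.89% of tested genes had a larger fold change than Notch1 in either direction.

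Between KD and WT the log2 fold change of Notch1 was -0.27 (95% interval -0.53 to -0.0031), with an unadjusted p of 0.0476 and an adjusted p of 0.151 in edgeR. Without WT replicate 1 it was -0.37 and passed (edgeR adjusted p 0.0452), and it also passed with no filter beyond 1 count (0.0278). Without WT replicate 3 it was -0.14 (0.482). The WT libraries that were low in Notch1 were also low in Notch2, so the ratio of the 2 receptors, a quantity chosen after the values were seen, was taken within each library. As log2 of CPM per kilobase, Notch1 to Notch2 ran from -3.48 to -3.33 in WT, from -3.86 to -3.72 in KD and from -5.18 to -4.72 in OE. The mean difference was -0.37 between KD and WT and -1.5 between OE and WT, with an exact permutation p of 0.1 for each, the smallest that 3 libraries against 3 allow.

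Notch1 (ENSMUSG00000026923) spans bases 26457903 to 26516663 of chromosome 2 (GRCm38, minus strand) and shares 1068 exon bases with 0610009E02Rik on the opposite strand. The use of strand in counting is not stated, so reads of the 2 genes may be mixed. That transcript had 11 to 31 counts per library, against 308 to 1134 for Notch1. The median over the 260 tested genes within 10 Mb of Notch1 was -0.037 in OE, as a log2 fold change. The summed endothelial markers were also lowest in OE, at 147 to 160 CPM in WT, 124 to 131 in KD and 107 to 118 in OE, a sum carried by Eng. Of 6 endothelial markers tested, 4 fell and 1 rose in OE and 4 fell in KD (edgeR adjusted p under 0.05). The one that rose in OE was Flt1, a VEGF receptor, at 17.2 ± 0.196 CPM in WT, 12.1 ± 0.979 in KD and 21.9 ± 1.58 in OE (SD, n = 3). The summed fibroblast markers ran from 5110 to 5680 CPM in WT, 4850 to 4910 in KD and 4040 to 4130 in OE, a sum that Col1a1 alone decides. Of 4 fibroblast markers tested, 4 fell in OE, and in KD only Col1a1 did. Beside these marker counts, 19.5% of all tested genes fell and 17% rose in OE, and 10.4% fell and 11% rose in KD. The summed mural markers, Notch3 among them, ran from 10.2 to 12 CPM in WT, 8.11 to 9.85 in KD and 7.25 to 8.5 in OE, and of 5 tested, 1 fell in OE (Pdgfrb) and 0 passed in KD. The part of such shifts in the Notch1 result was not tested. In bulk RNA, fewer cells of a type and less RNA per cell cannot be told apart.

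Notch2 is the receptor shared by endothelial, mural and many other cells. It was measured at 135, 161 and 173 CPM in WT, 175, 169 and 160 CPM in KD, and 171, 171 and 173 CPM in OE. The groups overlapped, and the OE libraries were the tightest. The log2 fold change against WT was 0.10 in KD (95% interval -0.046 to 0.25, edgeR adjusted p 0.348) and 0.13 in OE (-0.015 to 0.28, edgeR adjusted p 0.157). Without WT replicate 3 the OE difference was 0.20 and passed (edgeR adjusted p 0.02).

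Notch3 marks mural cells in vessels and was low here. It had 4.9, 6.07 and 5.86 CPM in WT, 5.68, 3.69 and 4.3 CPM in KD, and 4.67, 4.77 and 4.62 CPM in OE. All OE libraries lay just below the WT libraries, but neither comparison with WT passed, at -0.30 (95% interval -0.61 to 0.016) for KD and -0.26 (-0.58 to 0.049) for OE, edgeR adjusted p 0.182 and 0.187. Without KD replicate 1 the KD value was -0.49 and passed (edgeR adjusted p 0.0384).

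Notch4, the receptor most restricted to endothelium in the body, was barely present, with 12 to 53 counts per library. WT replicate 3 alone held 53 counts, and the other WT libraries held 21 and 28. Its log2 fold change was -0.71 in KD (95% interval -1.5 to 0.12, edgeR adjusted p 0.239) and -0.02 in OE (-0.81 to 0.77, edgeR adjusted p 0.98), and both intervals span either direction at this depth. Without WT replicate 3 these values were -0.18 and 0.50.

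Jag1, a ligand that endothelial cells present to mural cells and to each other, was the only member that rose. It stood at 11, 15.7 and 14 CPM in WT, 13.6, 13.1 and 14.2 CPM in KD, and 18.4, 21.5 and 19.4 CPM in OE. The OE libraries lay above all others, and KD lay inside the WT range. Jag1 was 1.45-fold higher in OE than in WT (log2 fold change 0.54, SE 0.104, 95% interval 0.32 to 0.75), edgeR adjusted p 0.000382. The fold against KD was likewise 1.45 (edgeR adjusted p 0.000302). Between KD and WT the mean was 13.6 CPM in both, with a 95% interval for the log2 fold change of -0.22 to 0.22. Jag1 (ENSMUSG00000027276) spans bases 137081456 to 137116644 of chromosome 2 (GRCm38, minus strand), and no other annotated gene overlaps it. For the 131 tested genes within 10 Mb the median in OE was 0.011.

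Jag2, the most abundant ligand, differed little. The WT libraries held 49.7, 56 and 57.9 CPM, the KD libraries 57.2, 57.6 and 55.2 CPM, and the OE libraries 50.2, 52.1 and 48 CPM. The OE libraries lay below all KD libraries and overlapped WT. Against KD, Jag2 fell by 11.5% in OE (log2 fold change -0.18, SE 0.0579, edgeR adjusted p 0.0179). This call was lost with library totals alone (edgeR adjusted p 0.0557) and when 1 of 4 libraries was left out: KD replicate 1 (0.0536) or 2 (0.0652), or OE replicate 1 (0.0539) or 3 (0.0932). Against WT the change in OE was -0.12 (95% interval -0.25 to -0.004, edgeR adjusted p 0.102), which passed without WT replicate 1 (-0.19, 0.0135), and in KD it was 0.05 (-0.068 to 0.17, edgeR adjusted p 0.599).

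The Jag1 to Jag2 ratio within a library, also chosen after the values were seen, ran from -1.92 to -1.58 in WT, from -1.88 to -1.7 in KD and from -1.19 to -1.02 in OE, as log2 of CPM per kilobase. OE differed from WT by 0.68 and from KD by 0.71 without overlap (exact permutation p 0.1 for each, the smallest possible), and KD differed from WT by -0.03 (exact permutation p 0.8).

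The Delta-like ligands were near the floor. Dll1 had 13, 32 and 14 counts in WT, 14, 28 and 34 in KD, and 26, 14 and 28 in OE. The groups overlapped fully, with log2 fold changes of 0.45 in KD (95% interval -0.48 to 1.4) and 0.26 in OE (-0.68 to 1.2), edgeR adjusted p 0.54 and 0.709. Dll1 also shares 867 exon bases with A930024N18Rik on the opposite strand. Dll4 had 2, 0 and 2 counts in WT, 5, 3 and 3 in KD, and 2, 0 and 2 in OE, and did not enter the test. No fold is given for it. With no filter beyond 1 count, KD and WT had an edgeR adjusted p of 0.701.

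The targets Hes1 and Hey1, which encode transcriptional repressors of the basic helix-loop-helix family, gave no call in any comparison. Hes1 stood at 33.4, 31.1 and 27.8 CPM in WT, 31, 29 and 30.9 CPM in KD, and 31.1, 35.5 and 26.2 CPM in OE. The OE libraries spread across the whole WT range and beyond it. The log2 fold change was -0.02 in KD (95% interval -0.22 to 0.18) and 0.01 in OE (-0.19 to 0.21), edgeR adjusted p 0.914 and 0.953.

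Hey1 stood at 4.27, 3.8 and 3.87 CPM in WT, 3.54, 2.89 and 3.03 CPM in KD, and 3.71, 3.13 and 4.22 CPM in OE. The KD libraries all lay below WT, while OE overlapped both. In KD the log2 fold change was -0.33 (95% interval -0.65 to -0.0049, unadjusted p 0.047, edgeR adjusted p 0.149), and in OE -0.11 (-0.43 to 0.21, edgeR adjusted p 0.636). Hey1 did not pass in KD under any of the 17 alternative settings.

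**Figure D2:**
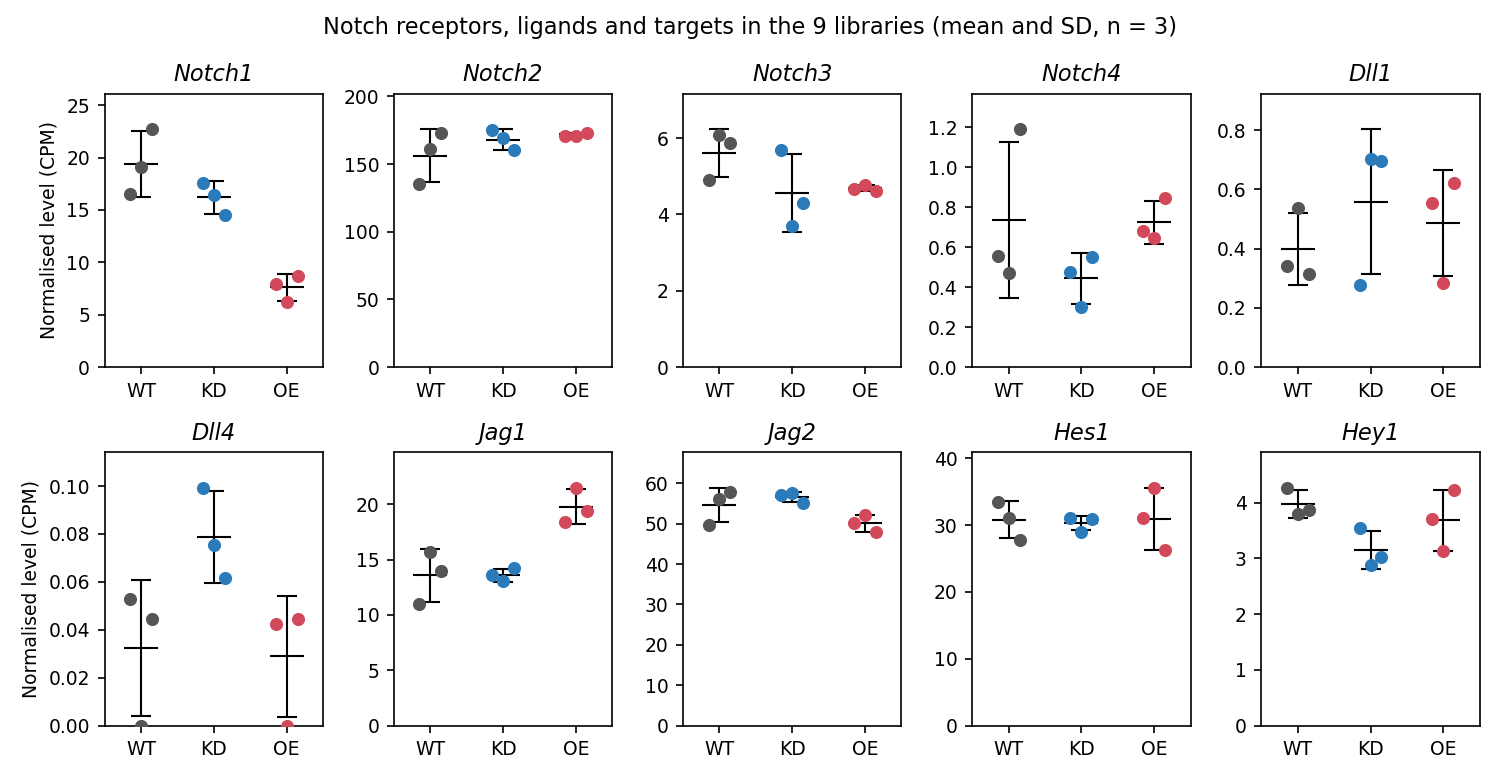
Points give the TMM-scaled level (CPM, linear axis from 0, a scale of its own per gene) of each of the 10 genes in the 9 libraries, in replicate order within each group, with the mean and SD (n = 3) in black. The OE points of Notch1, at 6.22 to 8.65 CPM, lie below all others and those of Jag1, at 18.4 to 21.5 CPM, lie above all others.

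Counted over the 9 tested members, 2 passed an adjusted p of 0.05 between OE and WT, Jag1 higher and Notch1 lower (edgeR's quasi-likelihood test). Over all 16955 genes tested, 36.4% passed in that comparison, 17% higher and 19.5% lower, so the members' share of 22.2% was not above the background. Between OE and KD, 3 of 9 passed, Jag1 higher and Notch1 and Jag2 lower, where 41.5% of all genes passed, 19.4% higher and 22.1% lower. Between KD and WT, 0 of 9 passed, where 21.3% of all genes passed, 11% higher and 10.4% lower. At an unadjusted p under 0.05 there were 2 in that comparison, Notch1 and Hey1, and both DESeq2 and limma-voom also called 0. In the test for any difference among the 3 groups, 3 of 9 passed, Notch1, Jag1 and Jag2 (edgeR adjusted p 8.01e-07, 0.000185 and 0.0404), beside 47.7% of all genes. Groups did not overlap for 1 member between KD and WT (Hey1, lower), beside 34.7% of all genes and 17% for the lower direction. They did not overlap for 3 between OE and WT, beside 45.1%, with Jag1 higher (21.7% of all genes) and Notch1 and Notch3 lower (23.5%). They did not overlap for 4 between OE and KD, beside 55.4%, with Jag1 and Notch4 higher (27.2%) and Notch1 and Jag2 lower (28.2%). The members' median log2 fold change was -0.021 in KD and -0.018 in OE, beside -0.002 and 0.002 over all genes. Both comparisons share the WT libraries.

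**Figure D3:**
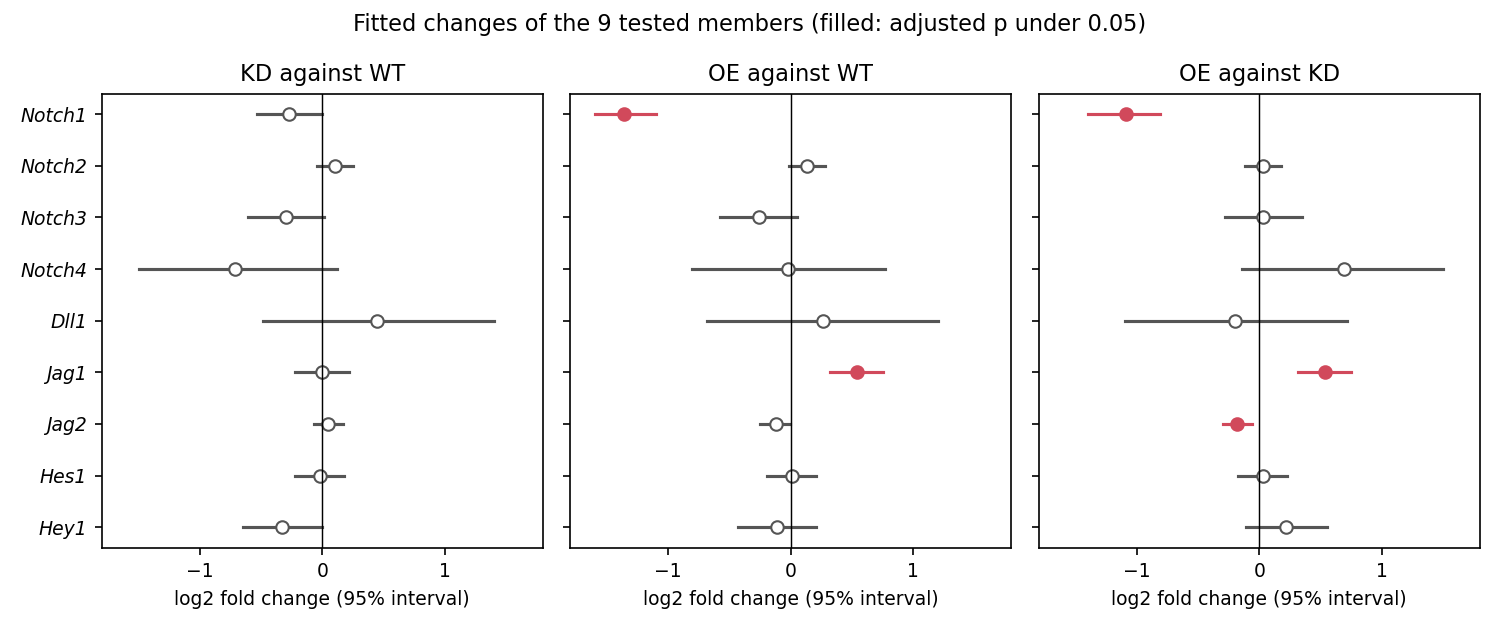
Points give the fitted log2 fold change of the 9 tested members with its 95% interval in each of the 3 comparisons; filled red points passed an adjusted p of 0.05. Notch1 at -1.36 and Jag1 at 0.54 are the filled points between OE and WT, none is filled between KD and WT, and the widest intervals belong to Notch4 and Dll1.

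The machinery around the receptors was read from a list of 64 other Notch pathway genes, of which 53 were tested. Against WT, 17 of them passed in KD, 10 higher and 7 lower, and 25 passed in OE, 10 higher and 15 lower (edgeR adjusted p under 0.05). Between OE and KD, 28 passed, 8 higher and 20 lower. As shares these were 32.1%, 47.2% and 52.8%, beside the 21.3%, 36.4% and 41.5% of all genes. The list's median log2 fold change was 0.006 in KD and -0.077 in OE. Its median absolute log2 fold change was 0.15 in KD and 0.2 in OE against WT, beside 0.162 and 0.22 over all genes. Between OE and KD it was 0.214, beside 0.252 over all genes. By these medians, which were not matched for expression level, the list's changes were no larger than those of all genes, although its called shares were higher. Among the untested genes, Dll3, Mfng, Heyl and Nrarp had at most 3 counts in every library, and Hes5 had 0.

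The 10 tested genes of the processing class encode proteases that cut the receptors or subunits of gamma-secretase. In OE 6 fell, 1 rose and 3 did not pass, where 19.5% of all genes fell and 17% rose. In KD 2 fell, a share of 20% beside 21.3% of all genes called. Adam10, the protease that makes the first ligand-dependent cut, stood at 411, 459 and 407 CPM in WT, 374, 373 and 366 CPM in KD, and 180, 181 and 196 CPM in OE. The 3 groups did not overlap. Adam10 fell by 56.4% in OE (log2 fold change -1.20, SE 0.0481, edgeR adjusted p 6.17e-14) and by 0.20 on the log2 scale in KD (edgeR adjusted p 0.00415). Its 158 tested neighbours within 10 Mb on chromosome 9 had medians of -0.335 in OE and 0.118 in KD as log2 fold changes, and the part of that shift in the Adam10 value was not tested. The related sheddase Adam17 had 66.6 ± 5.33 CPM (SD, n = 3) in WT and 66.5 ± 2.06 in OE (95% interval of the log2 fold change -0.12 to 0.12).

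Among the gamma-secretase subunits, Psen2 (-0.35), Ncstn (-0.24), Aph1a (-0.17) and Aph1b (-0.49) fell in OE and Psenen rose (0.18), as log2 fold changes. For Aph1b the neighbours' median was -0.373, and for Aph1c, which gave no call in OE against WT, it was -0.378. These lie near the -0.335 of the Adam10 neighbours, and the part of such shifts in the class count was not tested. The call was lost in 12 of 17 alternative settings for Psenen, 4 for Aph1a and 2 for Aph1b, and in 0 for Psen2 and Ncstn. Furin, which cleaves receptors in the Golgi, fell by 0.28 on the log2 scale in KD and by 0.38 in OE. None of the 4 tested glycosyltransferases, which tune receptor binding to each ligand class, passed in OE, while Pofut1 (0.17) and Lfng (0.21) rose in KD, calls lost in 4 and 1 of the 17 settings.

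In the nucleus, Rbpj, the DNA-binding partner of the Notch intracellular domain, was lowest in KD. It stood at 29.4, 34.6 and 33 CPM in WT, 24.8, 24.4 and 25.7 CPM in KD, and 37.7, 36.9 and 37.1 CPM in OE. The KD libraries lay below WT and the OE libraries above it. Rbpj fell by 0.38 on the log2 scale in KD (SE 0.0644, edgeR adjusted p 0.000215) and rose by 0.20 in OE (SE 0.0632, edgeR adjusted p 0.0159). OE exceeded KD by 0.58 (edgeR adjusted p 2.33e-07). The OE call against WT was lost with library totals alone (0.14, edgeR adjusted p 0.247), without WT replicate 1 (0.14, 0.0968) and without OE replicate 1 (0.19, 0.0569).

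The coactivator Maml1 gave no call, averaging 76.8 ± 3.14 CPM (SD, n = 3) across WT, 76.4 ± 0.823 across KD and 81.5 ± 1.32 across OE. Maml2 fell in OE, from 18.8 ± 1.84 to 11 ± 0.589 CPM (log2 fold change -0.78), and rose to 22.3 ± 0.708 CPM in KD (0.24, edgeR adjusted p 0.035, lost in 6 of the 17 settings). OE against KD was -1.02 (edgeR adjusted p 2.17e-09). Hdac1, a deacetylase of corepressor complexes, went from 109 ± 3.21 CPM in WT to 79.1 ± 2.68 in KD (log2 fold change -0.46) and 144 ± 3.26 in OE (0.41). Neighbours within 10 Mb had medians of -0.324 for Maml2 and 0.346 for Hdac1 in OE, and -0.177 for Hdac1 in KD. Of other list genes called in OE against WT, such medians were -0.338 for Nedd4, 0.305 for Spen and 0.325 for Mib2. For Furin and Ccnd1 they were 0.009 and 0.003. The part of such shifts in these values and in the list's counts was not tested.

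Among genes of ligand endocytosis, 2 of 6 passed in KD (33.3%), both higher. In OE 3 of 6 passed (50%), 2 higher and 1 lower. The Mib1 call in KD was lost in 6 of 17 alternative settings and the Mib2 call in OE in 11. Among genes of receptor turnover 2 of 9 (22.2%) passed in KD and 4 of 9 (44.4%) in OE. The shares of all genes were 21.3% and 36.4%. Between OE and KD, 4 of 6 genes of ligand endocytosis (66.7%) and 5 of 9 of receptor turnover (55.6%) passed, beside 41.5% of all genes. Neurl1a, whose product marks ligands for uptake, rose 1.58-fold in KD, from 8.92 ± 0.383 to 14.1 ± 1.34 CPM (SD, n = 3; edgeR adjusted p 4.62e-05), and was 8.95 ± 0.696 CPM in OE. Mib2, another such ligase, was 1.5-fold higher in OE than in KD (edgeR adjusted p 0.000428), with neighbours at a median of 0.506. Dtx4, a Deltex ubiquitin ligase, rose 1.5-fold in KD, from 25.9 ± 1.31 to 39 ± 0.526 CPM (edgeR adjusted p 8.14e-07). It also rose in OE, to 30.4 ± 1.95 CPM (log2 fold change 0.23, edgeR adjusted p 0.00678, lost in 1 of the 17 settings). Egfl7, a secreted endothelial protein reported to bind Notch, fell from 5.18 ± 0.459 CPM in WT to 2.99 ± 0.36 in KD and 2.49 ± 0.521 in OE (log2 fold changes -0.79 and -1.05, edgeR adjusted p 0.00138 and 3.65e-05). It lies on chromosome 2 among the neighbours of Notch1. Dlk2, the other tested gene of the ligand and antagonist class, also fell in both, with log2 fold changes of -0.19 in KD, a call lost in 5 of the 17 settings, and -0.91 in OE.

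Of the other genes listed as Notch targets, 10 were tested. In KD 2 rose and 1 fell, and in OE 3 rose and 1 fell, shares of 30% and 40% beside 21.3% and 36.4% of all genes. Nr4a1, an immediate-early nuclear receptor, fell from 11.7 ± 1.82 to 6.97 ± 0.75 CPM in KD (SD, n = 3; log2 fold change -0.75, edgeR adjusted p 0.00026). Ccnd1, the cyclin of the early cell cycle, rose from 13.3 ± 0.532 to 20.6 ± 0.196 CPM in OE (0.64, edgeR adjusted p 6.99e-07). Efnb2, an arterial marker downstream of Notch, fell by 0.22 on the log2 scale in OE, from 148 ± 6.74 to 128 ± 6.22 CPM. These genes have many other regulators.

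**Figure D4:**
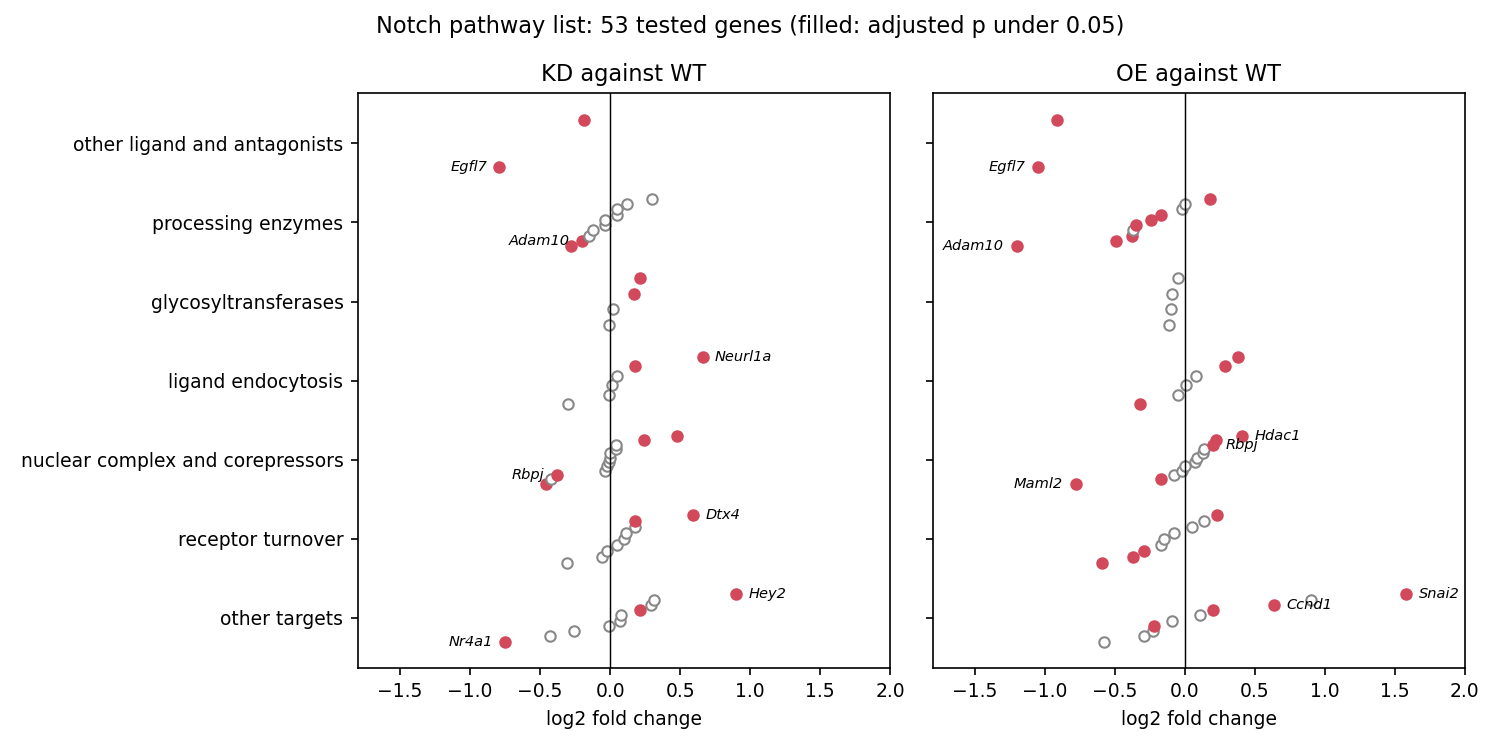
Each point is 1 of the 53 tested pathway genes, placed by class and by its log2 fold change in KD (left) or OE (right) against WT; filled red points passed an adjusted p of 0.05 and some are named. Adam10 at -1.20 is the lowest point in OE, and Rbpj lies at -0.38 in KD and 0.20 in OE.

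To place the members among other genes, the 3 genes most like the receptor, the ligand and the target with the smallest p over the 3 groups were found among 9709 genes of at least 5 CPM, by the root mean square difference of centred log2 CPM over the 9 libraries. For Notch1 these were Plxnd1 (0.156), Plat (0.159) and Ckb (0.16). Plxnd1, a semaphorin receptor, had mean levels of 89.1 CPM in WT, 72.1 in KD and 37.8 in OE. Plat, the tissue plasminogen activator, had 60.2, 51.8 and 22.7 CPM, and Ckb, a creatine kinase, had 15.1, 11.1 and 5.94 CPM. For Jag1 they were Slc4a7 (0.0804), Ppm1e (0.0895) and Hsd17b7 (0.0919). For Hey1, whose adjusted p over the 3 groups was 0.201 in edgeR, they were Csrp2 (0.0917), Gcdh (0.0959) and Stom (0.0962).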

How the data were processed

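Poly-A RNA of 9 MCEC samples was sequenced. The authors deposited raw counts per Ensembl gene and library; the submitters' processing notes name GRCm38 (mm10), and the aligner, counter, strand use and annotation are not given in the sources used here. The table has 55774 rows, and genes repeated with identical counts were kept once (55487). All 9 count columns matched a sample title, leaving 0 unused. Genes passing filterByExpr with a minimum count of 10 (16955) were scaled with TMM and fitted in 1 model of the 9 libraries by group alone (edgeR 4.0.16, limma 3.58.1, DESeq2 1.42.0, R 4.3.3; Python 3.11.15, matplotlib 3.10.9). Adjusted p means Benjamini-Hochberg over every tested gene, and SEs and 95% intervals come from the quasi-likelihood F statistic. The alike-gene search added 0.1 to CPM. Replicate pairs all differed by more than sampling noise (median chi-square 3.01 to 11.2 times that expected). The WT pairs differed most, at 8.17 to 11.2. Lengths and positions are from GENCODE M21. The fitting code was tested on simulated counts. The members and the lists were chosen with earlier results of these data known. Named pathway genes are the 2 largest rises and falls per comparison with at least 5 CPM in a group. Added to these were Rbpj, Maml1, Adam10 and Adam17. Psen2, Ncstn, Aph1a, Aph1b, Aph1c, Psenen, Furin, Dlk2, Pofut1, Lfng, Efnb2, Nedd4, Spen and Mib1 were given after their values were seen. The same holds for the Maml2, Hdac1 and Mib2 values against WT and the Dtx4 value in OE. Alternatives changed the scaling, filter, test, samples fitted and replicate block, or left out each library.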

Additional observations from a re-analysis of the deposited data

How the results depend on the processing

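Over the 17 alternative settings, Notch1 kept its fall in OE (log2 fold change -1.46 to -1.23 against WT, -1.19 to -0.96 against KD) and Jag1 its rise (0.41 to 0.65 and 0.47 to 0.59), and every one of these passed. Of 459 member values under alternatives, 449 kept their side of the threshold, 5 lost a call, 5 gained one and 0 reversed a called direction. The count of members called between KD and WT, 0, was 1 with no filter beyond 1 count and ran from 0 to 1 when single libraries were left out; the cause was not tested. With the replicate number as a block (replicate block), 0, 2 and 3 members passed in KD against WT, OE against WT and OE against KD, as without it, and 17, 23 and 29 pathway genes. The labels state no pairing by replicate number. Same-numbered deviations correlated at -0.198 to 0.0979 over 10282 genes. The highest correlation with a different number ran from -0.0323 to 0.154. With 3 libraries per group these values cannot decide whether the numbers pair the libraries. Scaling by library totals moved the higher share of all called genes from 51.4% to 35.8% in KD and from 46.6% to 31.6% in OE. Depth limits Dll1, Dll4 and Notch4, where 12 to 53 counts per library or fewer leave wide intervals.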

Other observations

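Hey2 and Snai2, both on the list of other Notch targets and both under 5 CPM, were singled out after their values were seen. Hey2, a repressor of the same family as Hey1, had 2.14, 1.66 and 1.81 CPM in WT, 3.16, 3.67 and 3.63 CPM in KD, and 1.85, 2.06 and 2.09 CPM in OE. The KD libraries lay above all others, a log2 fold change of 0.90 against WT (edgeR adjusted p 0.000695, higher in 3 of 3 libraries), while Hey1 in KD was at -0.33 without a call. Snai2, a zinc finger repressor known from the loss of cell junctions, had 1.21, 1.41 and 1.12 CPM in WT, 1.55, 1.83 and 1.23 CPM in KD, and 3.79, 3.98 and 3.49 CPM in OE. The OE libraries lay above all others, a log2 fold change of 1.58 against WT (edgeR adjusted p 1.68e-06).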
